A study of Mus musculus with 24 samples.

Results

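The effect of losing all TET enzymes was set against the effect of losing TDG in unstimulated bone marrow-derived macrophages (BMDMs), the macrophages that grow from bone marrow in medium with M-CSF. The comparison used the 8 BMDM libraries at 0 h out of the 24 libraries of the series, in 4 groups of 2: TET iTKO and WT of the Tet cohort, and TDG iKO and WT of the Tdg cohort. For each gene the TET effect is the log2 ratio of TET iTKO to WT of the Tet cohort, the TDG effect is the log2 ratio of TDG iKO to WT of the Tdg cohort, and the difference of effects is the TET effect minus the TDG effect. A constant gap between the cohorts cancels in that difference. The 8 BMDM libraries at 6 h after Kdo2-lipid A, a Toll-like receptor 4 agonist, shared in the estimate of the spread of the 16-library fit and are otherwise used only where said.

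All mice were adult and of the C57BL/6 strain. In TET iTKO the floxed alleles of Tet1, Tet2 and Tet3, and in TDG iKO those of Tdg, were deleted by CreERT2, a tamoxifen-activated Cre that is inserted at the Ndor1 locus and active in many cell types, so deletion was not limited to macrophages. Tamoxifen was given to the mice with Cre and to their controls alike, per the study's methods. Whether the 2 libraries of a group came from separate mice was not stated. The p-values thus measure the spread between these libraries, which may be technical outside WT of the Tet cohort. The libraries of that group differed in Xist, given below, so they were not repeats of the same RNA. Cohort cannot be told apart from any batch, litter or instrument that differed between the cohorts.

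TET1, TET2 and TET3 oxidise 5-methylcytosine, mostly at CpG dinucleotides, to 5-hydroxymethylcytosine and then to 5-formylcytosine and 5-carboxylcytosine. TDG is a DNA glycosylase that excises the last 2 of these forms, after which base excision repair puts back an unmodified cytosine. Oxidised bases can also be lost passively when DNA is copied, which needs TET and not TDG, and TET proteins bind partners that act on chromatin apart from oxidation. In macrophages TET2 is known for restraining inflammatory genes.

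The libraries carried the genes that define macrophages. Emr1, which encodes F4/80, lay between 24570 and 50972 normalised counts in the 8 libraries, and Csf1r, the M-CSF receptor, between 15228 and 24054. Cd3e, a T cell marker, and Klrb1c, a natural killer cell marker, were at 0 to 2.86 and at 0. Over the 15 markers of T, B and natural killer cells the summed level was 297.2 and 535.6 in TET iTKO, 251.4 and 370.7 in WT of the Tet cohort, 225.3 and 235.8 in TDG iKO and 171.4 and 217.5 in WT of the Tdg cohort, with Cd4 the largest part in most libraries. Within that list the B cell genes Cd79a, Cd79b and Ms4a1 rose in TET iTKO, Ms4a1 to 8.71 and 73.8 from 4.2 and 6.7. Fewer cells of a type and less RNA per cell cannot be told apart in these bulk libraries, and the part of other cell types in the results below was not tested.

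Assigned counts ran from 4982950 to 21503302 per library, and 1 library stood apart. It was WT replicate 2 of the Tdg cohort, with the lowest total and the largest share of read pairs assigned to no gene (46.6%, against 32.8% to 42.7% in the others). Its median absolute gap to replicate 1 of its group was 0.54 on the log2 scale, against 0.28 in TDG iKO, 0.13 in TET iTKO and 0.11 in WT of the Tet cohort. Xist, the RNA of the inactive X chromosome, had 0 counts in WT replicate 1 of the Tet cohort and 2097 to 22210 in the other 7 libraries. WT of the Tet cohort thus joined a library without Xist and a library with it (22210). Both TET iTKO libraries had it (17591 and 17088). This imbalance lies within the TET effect, and its part there was not tested.

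The counts did not check the deletions. The study quantified Tet1, Tet2, Tet3 and Tdg transcripts by qRT-PCR in a supplementary figure on BMDMs. Tdg itself had 0 counts in 7 libraries and 1 count in the other, so that its deletion could not be checked from these counts. Tet2 stood at 696 and 654.5 normalised counts in TET iTKO and 473.5 and 564.3 in WT, and Tet3 at 1448 and 1318 against 1293 and 1241, with no call for either. Gene-level counts do not show the loss of single exons, and the deleted exons of Tet1, Tet2 and Tet3 were not resolved. Tet1 had few counts, with 5.81 and 1.43 normalised counts in TET iTKO and 0 in both WT libraries. Ndor1, the site of the Cre, fell in TET iTKO (235.2 and 214.8 against 343.1 and 393.3, TET effect -0.72, SE 0.20, adjusted p = 0.00744), and its TDG effect was -0.49 (SE 0.41) with 164.7 and 292.4 against 341.6 and 301.6.

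TET loss moved many genes at rest and TDG loss moved none that passed the test. DESeq2 called 916 genes for the TET effect, 7.56% of the 12114 tested, with 535 higher and 381 lower. For the TDG effect it called 0 of 15026 genes (0%), and 265 had an unadjusted p under 0.05 (1.76%). edgeR also called 0, with 125 at an unadjusted p under 0.05. The difference of effects itself was called for 38 of 11172 genes (0.34%), of which 31 had a larger TET than TDG effect (0.277%) and 7 a smaller one (0.0627%). These 38 are the genes for which the test found that the effects differed. At an unadjusted p under 0.05 the share was 4.59%. Of the 908 genes with a TET call that were tested for the difference, 872 did not pass, and a missed threshold does not show that TDG loss acted on them in the same way. The call of 38 depended on single libraries, with 2409 calls without WT replicate 1 of the Tdg cohort, where the TDG effect had 1184, and 14 without TET iTKO replicate 2 or WT replicate 2 of the Tet cohort. All 38 kept their sign in each of these fits, which reuse the libraries that picked the genes, so the kept signs are no further support. When each of the 8 libraries was left out in turn, 10 of the 38 were called every time, namely Upp1, Cd300e, Lcn2, Tmem176b, Tmem176a, Cd14, Siglece, Gpr84, Fpr1 and Clec7a. Another 10 were called in only 1 or 2 of these fits, namely Ifitm6, Eva1b, Ednrb, Fpr2, Ccr1, Slc7a5, Sdc4, Arhgdib, Rab20 and AI427809. The median SE over genes with mean normalised counts of 50 or more was 0.17 for the TET effect, 0.38 for the TDG effect and 0.39 for the difference. edgeR's quasi-likelihood test, run as an alternative, called 0 genes for the difference, with 599 at an unadjusted p under 0.05 that included all 38.

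**Figure D1:**
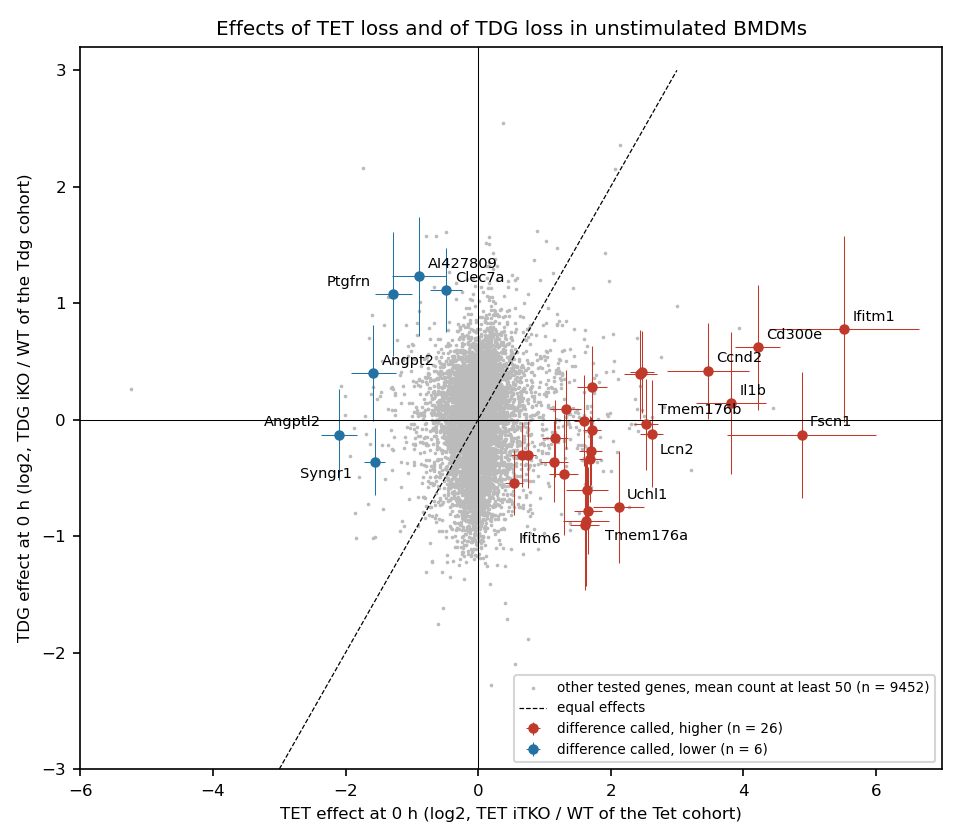
Each point is a gene with mean normalised counts of 50 or more at 0 h, the horizontal axis is the TET effect and the vertical axis the TDG effect (both log2), red and blue points are genes whose difference of effects was called, and bars are SEs. The TET effects of the called genes run from -2.10 for Angptl2 to 5.52 for Ifitm1 and their TDG effects from -0.90 to 1.23, with Clec7a and AI427809 farther from 0 on the TDG axis than on the TET axis.

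Genes moved by TET loss only, with the difference and the TET effect called and no TDG call, numbered 36, of which 31 rose and 5 fell in TET iTKO. They include Tmem176a and Ptgfrn, which also met the rule for opposite directions below, and without these 30 rose and 4 fell. All 31 that rose had both TET iTKO libraries above both WT libraries of the Tet cohort. The TET call that picked them used these same libraries, so this separation was nearly set in advance and is a description. Their median TET effect was 1.72 and their median TDG effect -0.27, on the log2 scale. In 10 of the 31 the TDG iKO libraries did not overlap WT of the Tdg cohort, a share of 32.3%, against 22.3% of all tested genes. They held interleukins, chemoattractant receptors, prostaglandin genes, antimicrobial proteins and membrane proteins of myeloid cells, given next by what they encode.

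**Figure D2:**
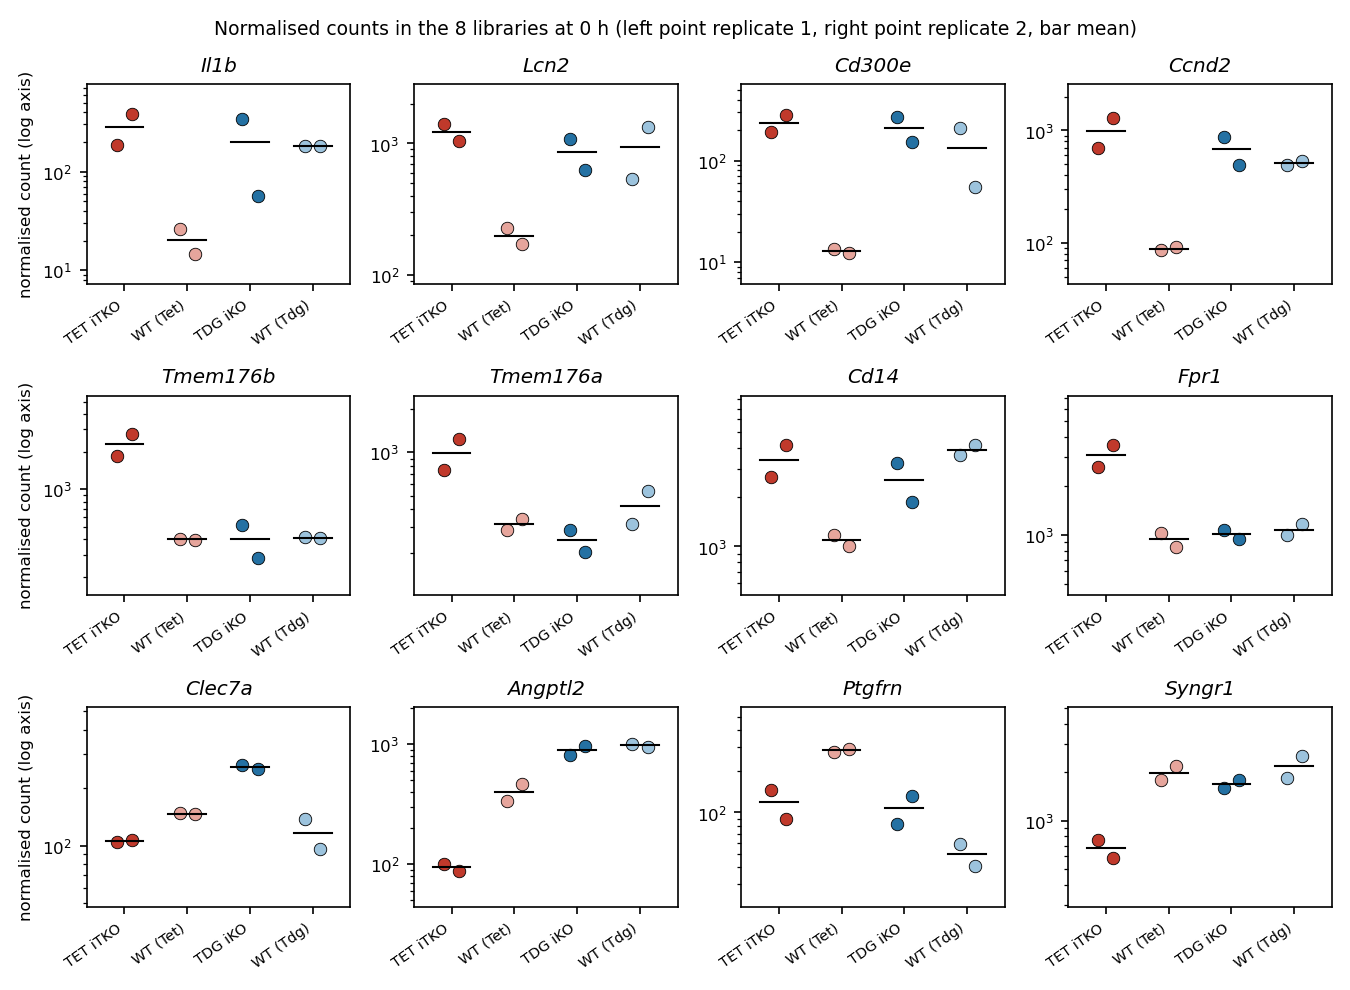
Normalised counts (log axes) of 12 genes whose difference of effects was called, in the 8 libraries at 0 h, with a bar at the mean of each group of 2. In the upper rows TET iTKO lies above its WT in every panel, and in the bottom row below it, while the points of TDG iKO overlap those of WT of the Tdg cohort in 7 of the 12 panels.

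Among secreted mediators, Il1b, which encodes interleukin 1 beta, stood at 185.9 and 380.9 normalised counts in TET iTKO and at 26.1 and 14.6 in WT. In the Tdg cohort it stood at 343.2 and 56.6 in TDG iKO and at 179.7 and 182.7 in WT. Both TET iTKO libraries were thus above their WT, the TDG iKO libraries lay on both sides of theirs, and WT of the Tdg cohort was just below the lower TET iTKO library. The TET effect was 3.82 (SE 0.53), the TDG effect 0.14 (95% interval -1.06 to 1.35) and the difference 3.68 (SE 0.84, adjusted p = 0.00624). Leaving out each of the 8 libraries in turn gave differences from 2.90 to 5.51. The call ended without WT replicate 2 of the Tdg cohort (adjusted p = 0.33), TET iTKO replicate 2 (adjusted p = 0.406) or WT replicate 2 of the Tet cohort (adjusted p = 0.238). The gene lies on mm9 chr2:129190306-129196875, minus strand, and overlaps Gm14047 on the other strand.

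Lcn2, whose product lipocalin 2 withholds iron from bacteria, stood at 1405 and 1036 in TET iTKO against 227.1 and 170.5 in WT. It stood at 1088 and 631.4 in TDG iKO against 535.5 and 1343 in WT of that cohort, so that these libraries overlapped. The difference was 2.74 (SE 0.54, adjusted p = 0.000396) and was called in all 8 fits that left out 1 library. Il1f9, the interleukin now named IL-36 gamma, had 53.2 and 58 normalised counts in TET iTKO and 1.68 and 3.04 in WT, with 38.9 and 8.09 in TDG iKO and 23.6 and 20.3 in its WT. Its mean count was under 50, and its difference was 4.50 (SE 0.99, adjusted p = 0.00336). Ptgs2, the inducible cyclooxygenase, had 67.8 and 111 against 16.8 and 14 in the Tet cohort, with 25.2 and 29 against 33.1 and 40.6 in the Tdg cohort, and a difference of 2.96 (SE 0.66, adjusted p = 0.00422). Vegfc, a growth factor for lymphatic vessels, rose to 199.4 and 263.5 from 35.3 and 48.7 (difference 2.05, SE 0.44, adjusted p = 0.00194). Cd5l, a scavenger-family protein that macrophages secrete, rose to 4777 and 4933 from 1675 and 1341, against 1345 and 1945 in TDG iKO and 1569 and 2619 in its WT (difference 2.03, SE 0.42, adjusted p = 0.00107). Of the genes whose difference was called, those outside the 16 that the rule for named genes took were chosen after their values were seen, among them Il1f9, Ptgs2, Vegfc, Cd5l and most of the receptors below.

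Receptors of the cell surface formed another group. Cd300e, an activating receptor of monocytes, stood at 193.6 and 281.4 in TET iTKO against 13.5 and 12.2 in WT, and at 266.5 and 152.3 in TDG iKO against 210.4 and 55.1 in its WT. The libraries of the Tet cohort were far apart and those of the Tdg cohort overlapped (difference 3.61, SE 0.68, adjusted p = 0.000172, called in all 8 omissions). Cd14, the co-receptor for lipopolysaccharide, stood at 2647 and 4157 against 1182 and 1002 in the Tet cohort, and at 3257 and 1867 against 3636 and 4176 in the Tdg cohort. The groups did not overlap in either cohort and lay in opposite order, although the TDG effect of -0.60 (95% interval -1.25 to 0.04) did not pass its test (difference 2.25, SE 0.42, adjusted p = 0.000172). Fpr1, a receptor for formylated bacterial peptides, stood at 2609 and 3588 against 1034 and 846.8, with 1070 and 946.7 in TDG iKO and 993 and 1163 in its WT. Its 6 libraries outside TET iTKO lay within 846.8 and 1163. It had the smallest adjusted p of the 38 genes (difference 1.81, SE 0.27, adjusted p = 8.32e-08), and its TDG interval was -0.57 to 0.39.

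Fpr2, its neighbour on chromosome 17, rose to 897.4 and 1214 from 344.8 and 351.3 (difference 1.62, SE 0.43, adjusted p = 0.0498). Without WT replicate 2 of the Tdg cohort its difference was 1.16 (adjusted p = 0.548). It shares sequence with other receptors of its family, so that its reads may be split among them. Gpr84, a receptor for medium-chain fatty acids, rose to 1000.0 and 1563 from 403.7 and 385.4, against 606.3 and 546.5 in TDG iKO and 680.9 and 707.6 in its WT (difference 1.97, SE 0.34, adjusted p = 3.21e-05). Siglece, an inhibitory receptor that binds sialic acid, rose to 409.5 and 490.5 from 86.6 and 76.7, against 303.1 and 210.2 in TDG iKO and 225.8 and 153.7 in its WT (difference 2.08, SE 0.35, adjusted p = 2.28e-05). The chemokine receptor Ccr1, the prostacyclin receptor Ptgir and the endothelin receptor Ednrb had differences of 1.45, 1.33 and 1.81. Called receptors thus included both activating and inhibitory ones.

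Further members were membrane proteins. Ifitm1, of the interferon-induced IFITM family that hinders virus entry, stood at 76.5 and 307.2 in TET iTKO against 6.73 and 1.83 in WT, and at 44.6 and 18.9 in TDG iKO against 18.9 and 17.4 in its WT (difference 4.76, SE 1.18, adjusted p = 0.0231). Ifitm6, on the same chromosome 7, stood at 353.3 and 403.9 against 115.2 and 132.7, and at 152.1 and 214.9 against 150.1 and 545.2 in the Tdg cohort. The value of 545.2 is that of WT replicate 2 of the Tdg cohort, and without that library the difference of Ifitm6 went from 2.51 (SE 0.63, adjusted p = 0.0286) to 1.30 (adjusted p = 0.174).

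Tmem176a and Tmem176b encode a pair of 4-pass membrane proteins of macrophages and dendritic cells and lie head to head on chromosome 6, in mm9 at chr6:48791482-48795363 on the plus strand and chr6:48783810-48791373 on the minus strand. The 108 bases between their annotated ends, on the plus strand of mm9 at chr6:48791374-48791481, are shown because both genes moved with TET loss and share this stretch. It holds no CpG.
Tmem176b-Tmem176a: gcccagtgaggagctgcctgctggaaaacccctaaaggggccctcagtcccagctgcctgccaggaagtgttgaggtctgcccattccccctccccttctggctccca
Tmem176b stood at 1833 and 2773 in TET iTKO against 402 and 396.9 in WT, and at 515.9 and 285.7 in TDG iKO against 416.1 and 408.9 in its WT. The 3 other groups were alike in level and TET iTKO alone was high (difference 2.57, SE 0.45, adjusted p = 3.34e-05, TDG interval -0.81 to 0.73). Tmem176a stood at 758 and 1229 against 285.9 and 343.4, and at 287.1 and 202.1 against 314.5 and 533.6, so that it was higher in TET iTKO and lower in TDG iKO than in its own WT, with no overlap in either cohort. Its difference was 2.44 (SE 0.46, adjusted p = 0.000172), and both genes were called in all 8 omissions.

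The remaining rises included genes of the cell cycle and the cytoskeleton. Ccnd2, the cyclin D2 of G1 phase, stood at 699.9 and 1281 in TET iTKO against 86.6 and 91.9 in WT, and at 881.9 and 492.6 in TDG iKO against 494.1 and 536.5 in its WT (difference 3.06, SE 0.66, adjusted p = 0.00293). Fscn1, an actin-bundling protein of mature dendritic cells, had 53 raw counts over both TET iTKO libraries and 2 over both WT libraries, a ratio of 30.9 after scaling for depth (exact 95% interval 8.14 to 261.7, counting error only). In the Tdg cohort it was at 139.6 and 44.5 normalised counts in TDG iKO and 111.1 and 87 in WT, higher than in TET iTKO (7.74 and 32.2). Uchl1, a ubiquitin hydrolase, was likewise higher throughout the Tdg cohort (179.9 to 539.4) than in TET iTKO (71.6 and 146.1), which was above its WT (26.9 and 23.7, difference 2.87, SE 0.66, adjusted p = 0.00624). Without WT replicate 2 of the Tdg cohort the difference of Uchl1 was 2.05 (adjusted p = 0.173). Eva1b had a difference of 2.48 (SE 0.63, adjusted p = 0.0318), with 60 and 88.1 against 20.2 and 27.4 in the Tet cohort, and 37.7 and 43.1 against 43.7 and 110.2 in the Tdg cohort, and without WT replicate 2 of the Tdg cohort it was 1.73 (adjusted p = 0.483). The other rises (Susd2, Upp1, Zfp811, Smpdl3b, Slc7a5, Sdc4, Arhgdib and Rab20) had differences between 0.96 and 4.98.

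Of the 5 genes that fell with TET loss only, Angptl2, a secreted angiopoietin-like factor, stood at 100.7 and 88.1 in TET iTKO against 333 and 469.4 in WT, and at 806.4 and 973 in TDG iKO against 1010 and 942.5 in its WT. TET iTKO was the lowest group and the Tdg groups overlapped (difference -1.96, SE 0.44, adjusted p = 0.00515). Angpt2, a secreted ligand of the TIE2 receptor, stood at 73.6 and 51.6 against 156.4 and 213.1, and at 258.5 and 257.4 against 208.1 and 182.7 (difference -1.97, SE 0.45, adjusted p = 0.00718). Syngr1, a vesicle membrane protein, stood at 763.8 and 583.6 against 1787 and 2176, with 1601 and 1781 in TDG iKO and 1843 and 2520 in its WT (difference -1.20, SE 0.31, adjusted p = 0.0387).

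Ppp1ca, a catalytic subunit of protein phosphatase 1, had 3 raw counts over both TET iTKO libraries and 233 over both WT libraries, a ratio of 0.015 (exact 95% interval 0.00307 to 0.0444, counting error only). In the Tdg cohort its normalised counts were 9.15 and 13.5 in TDG iKO and 13 and 14.5 in WT. It overlaps Rad9 on the other strand, so its counts are uncertain. Its values are given here after they were seen, as its mean count was under 50.

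Genes moved in opposite directions, by the rule that the difference and the TET effect be called and the TDG effect have the other sign at an unadjusted p under 0.05, were Tmem176a and Ptgfrn. Tmem176a had a TET effect of 1.66 (SE 0.21, adjusted p = 2.1e-12) and a TDG effect of -0.78 (SE 0.37, unadjusted p = 0.0369). Ptgfrn, which encodes a tetraspanin-associated membrane protein that inhibits the prostaglandin F2 alpha receptor, stood at 147.1 and 90.2 in TET iTKO against 278.4 and 294 in WT, and at 82.4 and 132.1 in TDG iKO against 59.1 and 40.6 in its WT. The groups did not overlap in either cohort. Its TET effect was -1.28 (SE 0.28, adjusted p = 0.000194), its TDG effect 1.08 (SE 0.53, unadjusted p = 0.0401) and its difference -2.35 (SE 0.56, adjusted p = 0.0128). Neither TDG effect passed the adjusted test, and without WT replicate 2 of the Tdg cohort they were -0.37 (unadjusted p = 0.333) and 0.87 (unadjusted p = 0.147), so that no gene met the rule.

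Without the demand that the difference be called, 11 of the 9484 genes with a mean of at least 50 had TET and TDG effects of opposite sign, each at an unadjusted p under 0.05. Over all tested genes 1.76% had a TDG effect at that unadjusted p, so these genes are given as a description. Pianp, a paired receptor ligand, had the largest difference, -3.88 (SE 1.08, adjusted p = 0.0786), with 61 and 32.9 against 116.1 and 192.4 in the Tet cohort and 117.8 and 381.4 against 41.4 and 72.5 in the Tdg cohort. The deiodinase Dio2 had 179.1 and 141.8 against 260.7 and 288.6, and 146.4 and 550.5 against 82.8 and 153.7. AI427809 had 35.8 and 32.9 against 67.3 and 59.7, and 105.2 and 91.6 against 36.6 and 49.3, and its difference of -2.13 (SE 0.50) was called (adjusted p = 0.0111) although its TET effect was not. On the other side the platelet chemokine Pf4 had 3472 and 3925 against 2669 and 1956, and 1139 and 886.1 against 1183 and 3350. The carbonyl reductase Cbr2 had 170.4 and 248.5 against 130.3 and 121.1, and 168.2 and 181.3 against 372.4 and 281.3. Lst1, a small leukocyte transcript, had 2346 and 2595 against 1880 and 1943, and 2027 and 2476 against 1864 and 7839. Of the 7 genes that were lower in TDG iKO, WT replicate 2 was the highest of the 4 libraries of the Tdg cohort in 6, and without it 1 kept a TDG effect at an unadjusted p under 0.05. Of the 4 that were higher in TDG iKO, 3 did.

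Clec7a and AI427809 were the called genes without a TET call, and in both the TDG effect was larger in size than the TET effect. AI427809 is given above. Clec7a encodes Dectin-1, the receptor for fungal beta-glucan, and stood at 262 and 250 in TDG iKO against 137.1 and 95.7 in WT of the Tdg cohort, and at 104.5 and 106.7 in TET iTKO against 148 and 145.5 in its WT. The groups did not overlap in either cohort and lay in opposite order. Its TDG effect was 1.11 (SE 0.36, unadjusted p = 0.00207), which did not pass the adjusted test, its TET effect -0.48 (SE 0.24, adjusted p = 0.299) and its difference -1.55 (SE 0.31, adjusted p = 0.000517). The difference was called in all 8 omissions, and without WT replicate 2 of the Tdg cohort the TDG effect was 0.90 (unadjusted p = 0.0112).

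No gene was moved by TDG loss only at the adjusted threshold. At unadjusted p under 0.05 for the TDG effect and for the difference, and of 0.05 or more for the TET effect, there were 60 genes with a mean of at least 50, of which 6 were higher and 54 lower in TDG iKO. The background was 1.76% of genes at an unadjusted p under 0.05 for the TDG effect, made of 0.333% higher and 1.43% lower. Among the 6 higher genes, Cyp2s1, a cytochrome P450 of the extrahepatic type, stood at 213.9 and 326.1 in TDG iKO against 24.8 and 72.5 in WT of the Tdg cohort and at 1.68 to 7.91 in the Tet cohort (TDG effect 2.55, SE 0.59, unadjusted p = 1.73e-05). The heparan sulfate proteoglycan Gpc1 (29.7 and 115.9 against 24.8 and 23.2) and the transporter Abcc10 (57.2 and 119.3 against 39 and 20.3) followed, each with 1 TDG iKO library far above the other. In 5 of the 6, WT replicate 2 of the Tdg cohort was the lowest of the 4 libraries of that cohort. Without it all 6 kept the sign, with a median TDG effect of 1.05, and the TDG effect of Cyp2s1 was 3.45.

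In all 54 lower genes, WT replicate 2 of the Tdg cohort was the highest of the 4 libraries of that cohort, as it was in 3435 of the 9484 tested genes with a mean of at least 50. Without it 50 of the 54 kept the sign, 1 kept an unadjusted p under 0.05, and the median TDG effect was -0.21. The largest 3 were Mir142, Ccdc173 and Rn45s. Mir142, the hairpin locus of the blood cell microRNA miR-142, stood at 13.7 and 35.7 in TDG iKO and at 15.4 and 203 in WT, and Ccdc173 at 17.2 and 49.9 against 33.1 and 220.4, and without WT replicate 2 their TDG effects of -2.10 and -1.88 became 0.71 and 0.04. Rn45s, the ribosomal RNA precursor, stood at 24072 and 21273 against 54625 and 80072, and without that library its TDG effect was -1.27 (unadjusted p = 0.00364).

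The genes that were lower in TDG iKO were short. The median exonic length of the 54 genes was 1586 bases over the 50 with a length, against 3834 bases over the tested genes of that mean. Across 9052 genes Spearman's rho of exonic length with the TDG effect was 0.515, with the TET effect 0.0624 and with the difference -0.404, given as a description since genes are not independent. In WT replicate 2 of the Tdg cohort the deviation from the mean of the 8 libraries correlated with length at -0.479, against -0.125 to 0.374 in the other 7. Without that library the rho of the TDG effect was 0.176. When gene length was entered as an offset in each library, 34 of the 38 calls of the difference remained and the total was 41.

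**Figure D3:**
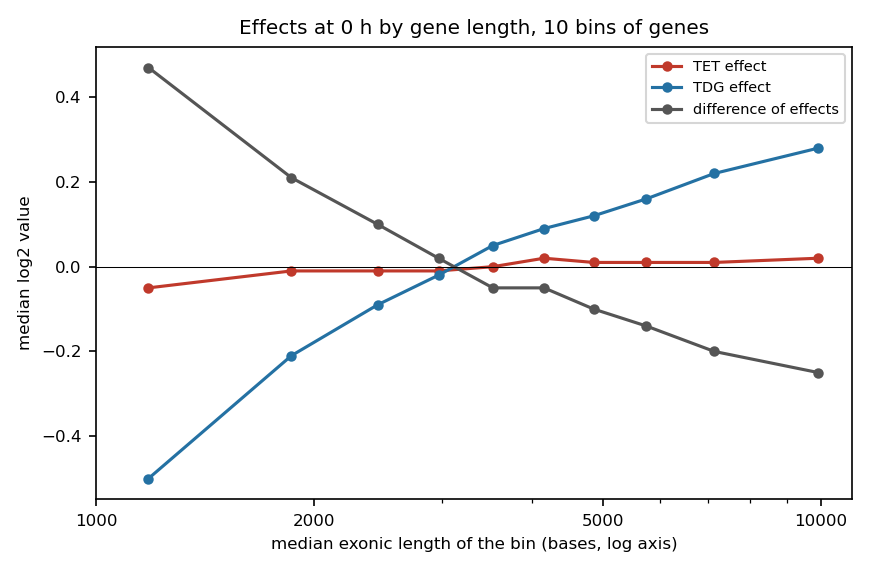
Median log2 TET effect, TDG effect and difference of effects (vertical axis) in 10 bins of genes by exonic length (horizontal axis, log scale), for genes with mean normalised counts of 50 or more. The TDG effect runs from -0.50 in the shortest bin to 0.28 in the longest, the TET effect stays between -0.05 and 0.02, and the difference runs the other way, from 0.47 to -0.25.

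Genes with effects of the same sign, each at an unadjusted p under 0.05, numbered 30 of the 9484 at a mean of at least 50, 7 higher and 23 lower. They too are a description. The collagen cross-linking enzyme Lox had 602.1 and 745.4 against 341.4 and 278.8, and 208.2 and 743.2 against 164.3 and 234.9. The X-linked gene Chic1 had 157.8 and 185.5 against 34.5 and 52.4, and 78.9 and 79.5 against 41.4 and 26.1. On the lower side the fatty acid binding protein Fabp4 had 1789 and 1076 against 2784 and 3677, and 782.4 and 944.7 against 1331 and 2039. Crip1, a LIM-domain protein, had 172.3 and 168.3 against 533.2 and 471.2, and 930 and 783 against 1069 and 2413. Ly86, also called MD-1, had 686.3 and 537 against 1123 and 1524, and 807.6 and 1020 against 1222 and 2221. For 22 of the 23 lower genes WT replicate 2 was again the highest library of its cohort.

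The WT groups of the cohorts differed for many of these genes. Of the 31 genes with a larger TET effect, 25 were higher in WT of the Tdg cohort than in WT of the Tet cohort without overlap and none was lower, against 23.5% of all tested genes that were higher and 25.8% that were lower. The difference of effects contains both WT groups, so this count is a description. For 5 of the 31 the mean of WT of the Tdg cohort reached the lower TET iTKO library. What set the gap between the WT groups was not tested. The WT libraries of the cohorts overlapped for Fpr1, Cd5l, Tmem176a, Fpr2, Ednrb and Rab20.

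The gene lists were chosen with earlier results of these data known, so every share of a list beside that of all genes is a description. Of the pathway lists, the inflammatory cytokines, chemokines and mediators had many rises with TET loss. Of 33 genes, 10 rose and 0 fell in TET iTKO, against 4.42% and 3.15% of all genes tested, and 0 passed in TDG iKO. The median TET effect of the 30 tested was 0.64 and the median TDG effect -0.23, against 0.01 and 0.04 over all tested genes, and the TDG median was 0.00 without WT replicate 2 of the Tdg cohort. The difference was called for 2, Il1b and Ptgs2, against 0.277% of all genes. Ptges, the prostaglandin E synthase, stood at 712.5 and 731.1 against 345.6 and 373.8 and at 113.2 and 270.2 against 192.7 and 568.4 (difference 1.97, SE 0.64, adjusted p = 0.241). The neutrophil attractant Cxcl2 stood at 350.4 and 303.6 against 166.5 and 99.8, and at 200.2 and 124 against 292 and 107.3 (difference 1.64, SE 0.59, adjusted p = 0.413). Il6 was near the floor of detection, at 5.81 and 21.5 in TET iTKO and 0 to 5.72 elsewhere, and Tnf stayed between 896.8 and 1333 in the 8 libraries.

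Of the NF-kB subunits and their feedback inhibitors, 10 of 18 rose and 0 fell with TET loss, against 4.42% and 3.15% of all genes tested, and 0 passed for TDG loss or for the difference. Socs3, an inhibitor of cytokine signalling, stood at 700.9 and 963.8 against 302.7 and 248.4, with 227.6 and 267.5 in TDG iKO and 229.3 and 188.5 in its WT (TET effect 1.60, SE 0.17, difference 1.36, SE 0.43, adjusted p = 0.183). Nfkbia, the inhibitor IkB alpha, stood at 2464 and 2618 against 1736 and 1825, and at 1700 and 1853 against 1681 and 4457. Tnip3 had 1085 and 1505 against 729.1 and 647.7, and a TDG effect of 0.07 (95% interval -0.62 to 0.76).

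The IFITM membrane proteins had 2 of 7 members called for the difference, Ifitm1 and Ifitm6, against 0.277% of all genes, and 3 that rose with TET loss, against 4.42%. Ifitm2 stood at 1659 and 1837 against 1235 and 1323, and at 2382 and 1920 against 2458 and 3060 (difference 0.81, SE 0.22, adjusted p = 0.0617). The wider list of 29 interferon-stimulated genes had 2 rises and 0 falls with TET loss, against 4.42% and 3.15% of all genes tested. It had no call for the difference, with a median TET effect of 0.51 and a median TDG effect of 0.15. The latter was 0.54 without WT replicate 2 of the Tdg cohort. The AP-1, EGR and NR4A factors had 2 rises in 23, and MHC class II presentation 2 rises and 3 falls in 13, beside the same shares of all genes. None of them was called for the difference.

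Immature myeloid and progenitor genes rose in 9 and fell in 1 of the 29 in the files with TET loss, against 4.42% and 3.15% of all genes tested, with medians of 1.19 for the TET effect and 0.87 for the TDG effect, of which no TDG effect passed. The myeloid progenitor marker Cd34 stood at 57.1 and 247 against 10.9 and 9.13, and at 234.5 and 36.4 against 111.1 and 43.5. Ccr2, the monocyte chemokine receptor, stood at 554.7 and 1246 against 167.3 and 157.1, and at 2104 and 1175 against 1764 and 1351 (difference 2.40, SE 0.71, adjusted p = 0.128). TDG iKO replicate 1 had higher levels of the neutrophil genes Mpo (1863) and S100a9 (1863), against 194.1 and 19.5 in replicate 2. Lcn2, described above, was the called gene of this list.

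Of 27 macrophage identity genes 4 rose and 10 fell with TET loss, against 4.42% and 3.15% of all genes tested, and the median TET effect was -0.40, against a median TDG effect of -0.01. Cx3cr1, the fractalkine receptor, went the other way, at 605 and 1326 against 44.6 and 43.8, and at 1082 and 248.6 against 672.6 and 568.4 (TET effect 4.45, SE 0.54, difference 4.35, SE 1.25, adjusted p = 0.102). Mertk, a receptor for dying cells, stood at 1791 and 1384 against 2435 and 2352, and at 832.8 and 1499 against 1099 and 333.5. The difference was called for Cd14 alone.

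Cell cycle and DNA replication genes rose in 8 of 25 with TET loss and fell in 1, against 4.42% and 3.15% of all genes tested, and 0 passed for TDG loss. Their median TET effect was 1.23, the largest of the lists with at least 10 tested genes, and their median TDG effect was -0.06 (-0.55 without WT replicate 2 of the Tdg cohort). The proliferation marker Mki67 stood at 227.5 and 630.9 against 140.4 and 142.5, and at 552.5 and 387.4 against 569.8 and 342.2, so that the Tdg cohort was high in both genotypes. Tyms and Ccne2 were likewise at 55.9 to 160.8 and 47.2 to 190.3 in the Tdg cohort, against 39.5 to 84.5 and 14.3 to 65.2 in the Tet cohort. None of the 3 passed the test of the TET effect (Ccne2 adjusted p = 0.0559, Mki67 0.0619, Tyms 0.258) or of the difference (2.30, 1.57 and 1.43).

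Matrix, adhesion and cytoskeleton genes rose in 7 and fell in 8 of 30 with TET loss, against 4.42% and 3.15% of all genes tested. This too is a description, since the list was chosen with earlier results known. Besides Angptl2, the adhesion molecule Cadm1 stood at 417.2 and 226.3 against 1429 and 1017, and at 1568 and 962.9 against 1838 and 1302 (difference -1.61, SE 0.60, adjusted p = 0.456). Tm4sf19 stood at 46.5 and 17.9 against 102.6 and 127.8 and at 121.3 and 132.7 against 173.8 and 89.9. For cholesterol genes 1 rose and 2 fell in 23 with TET loss, beside the same shares of all genes. Of the 33 genes of DNA methylation and base excision repair, 1 rose and 1 fell with TET loss, again beside these shares, and 0 passed with TDG loss. The uracil and thymine glycosylases that share substrates with TDG were level, with Mbd4 at 89.9 to 159 and Smug1 at 153.3 to 215.9 over the 8 libraries.

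The 83 cytosolic ribosomal protein genes were highest in 1 library. Their summed normalised count was 405432 in WT replicate 2 of the Tdg cohort and 145750 to 242954 in the other 7. The median TDG effect of the 77 tested was -0.72 and the median TET effect -0.03, and without that library the median TDG effect was -0.19. Rps24 stood at 3026, 3531, 2996 and 3069 in the Tet cohort and at 3513, 2928, 3364 and 11832 in the Tdg cohort, and Rps20 and Rplp2 had the same high library, at 6708 and 9127.

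**Figure D4:**
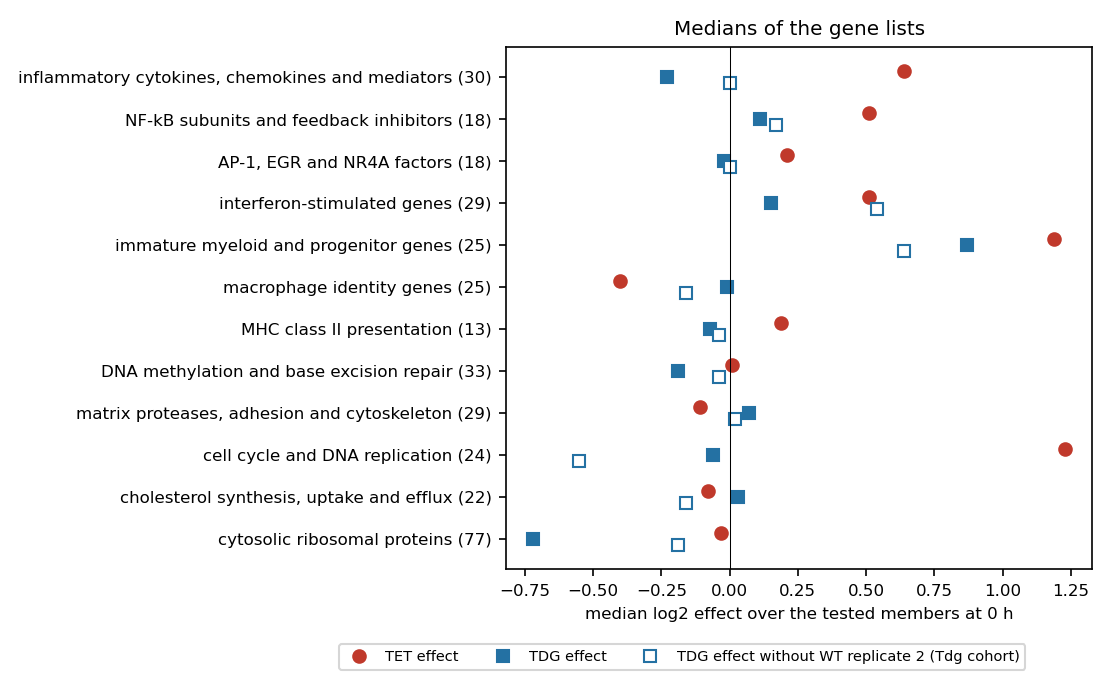
Median log2 effect at 0 h (horizontal axis) of the tested members of each gene list with at least 10 of them, the number in brackets, as red circles for the TET effect, filled squares for the TDG effect and open squares for the TDG effect without WT replicate 2 of the Tdg cohort. The TET medians of cell cycle (1.23) and immature myeloid genes (1.19) lie farthest right, and the TDG median of ribosomal protein genes moves from -0.72 to -0.19 without that library.

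The same contrast in the 8 libraries at 6 h of Kdo2-lipid A, which the calls at 0 h used only for the spread, kept most signs. Of the 38 genes, 37 had a difference of the same sign at 6 h, against 52% of all tested genes. The exception was Eva1b. The difference at 6 h was called for 5 of them (Ccnd2, Cd5l, Syngr1, Clec7a and AI427809), against 0.0888% of the 12393 genes tested there. The median difference of the 31 higher genes was 2.44 at 0 h and 1.21 at 6 h. Clec7a had a difference of -1.91 at 6 h (adjusted p = 9.64e-07) and Il1b one of 1.48 (adjusted p = 1). Whether the 0 h and 6 h libraries came from the same mice was not stated.

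Sequence upstream of the genes was looked at after the calls were seen, with RefSeq promoters of GRCm38.p6, as the 250 bases before each start site. TET and TDG act mostly at CpG, so CpG dinucleotides were counted, taking the start site with most CpG where a gene has several. Of the 31 genes with a larger TET effect 27 had an entry, and 14 of these had fewer than 5 CpG (51.9%), against 8.78% of the 8417 tested genes with an entry and 29% of the 393 genes that rose in TET iTKO. The median was 4 CpG for the 27 genes and 17 for all tested genes. Below are 3 CpG-poor stretches from genes that rose and, for contrast, the CpG-rich ones of Vegfc, which rose, and Ptgfrn, which fell, with each CpG in capitals. They lie at chr2:129371140-129371389, minus strand (Il1b), chr6:48841406-48841655, plus (Tmem176a, the start site counted), chr15:103310439-103310688, minus (Gpr84), chr8:54077282-54077531, plus (Vegfc) and chr3:101110167-101110416, minus (Ptgfrn).
Il1b: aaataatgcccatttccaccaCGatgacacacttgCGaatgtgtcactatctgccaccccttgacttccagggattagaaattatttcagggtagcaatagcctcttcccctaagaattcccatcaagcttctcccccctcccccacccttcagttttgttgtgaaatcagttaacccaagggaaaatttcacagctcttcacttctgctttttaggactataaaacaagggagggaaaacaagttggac
Tmem176a: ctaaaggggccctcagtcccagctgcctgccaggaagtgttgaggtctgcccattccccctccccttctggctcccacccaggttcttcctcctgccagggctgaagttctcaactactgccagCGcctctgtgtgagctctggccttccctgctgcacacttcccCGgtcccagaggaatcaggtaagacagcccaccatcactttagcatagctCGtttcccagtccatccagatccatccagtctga
Gpr84: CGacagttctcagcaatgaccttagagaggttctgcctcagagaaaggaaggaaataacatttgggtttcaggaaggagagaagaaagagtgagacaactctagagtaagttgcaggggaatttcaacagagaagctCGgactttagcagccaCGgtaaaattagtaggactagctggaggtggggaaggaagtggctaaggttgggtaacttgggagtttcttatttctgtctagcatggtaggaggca
Vegfc: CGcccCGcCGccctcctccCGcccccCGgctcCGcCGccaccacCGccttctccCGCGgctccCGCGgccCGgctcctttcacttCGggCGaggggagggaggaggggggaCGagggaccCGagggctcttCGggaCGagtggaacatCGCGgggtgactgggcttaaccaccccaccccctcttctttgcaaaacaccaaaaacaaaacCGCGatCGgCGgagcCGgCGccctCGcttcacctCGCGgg
Ptgfrn: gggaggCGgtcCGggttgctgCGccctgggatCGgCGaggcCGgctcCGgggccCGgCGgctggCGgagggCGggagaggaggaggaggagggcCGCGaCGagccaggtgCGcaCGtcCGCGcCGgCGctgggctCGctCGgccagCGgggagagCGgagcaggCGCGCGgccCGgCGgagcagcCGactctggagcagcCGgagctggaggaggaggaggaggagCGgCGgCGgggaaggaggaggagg

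**Figure D5:**
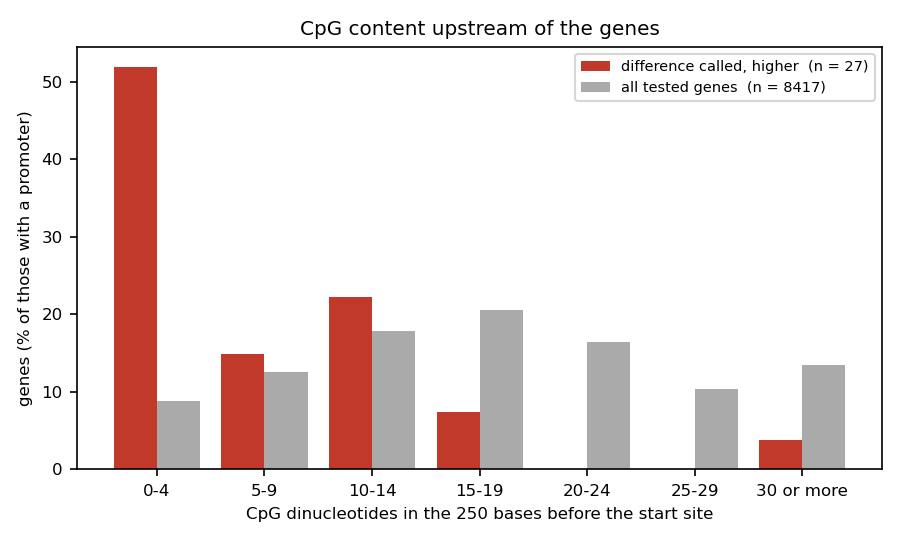
Share of genes (vertical axis, percent) by the number of CpG dinucleotides in the 250 bases before the start site (horizontal axis), for the genes with a larger TET than TDG effect (red, n = 27) and for all tested genes with a promoter entry (grey, n = 8417). The lowest class, 0 to 4 CpG, holds 51.9% of the former and 8.78% of the latter.

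Short motifs were searched on both strands of the 250 bases before every start site of a gene, and a match at any start site counted. For NF-kB a form of 10 letters was searched first and stood upstream of 0 of the 27 genes (0.547% of tested genes). A shorter form, GGGNNTTCC, was searched after that result was seen and stood upstream of 6 (22.2%), namely Ednrb, Sdc4, Siglece, Tmem176a (at its other start site, not in the 250 bases shown for it), Tmem176b and Uchl1, against 7.54% of tested genes and 5.61% of the 27025 genes of the table. The matches of Tmem176a and Tmem176b are the same letters on opposite strands, counted for both genes. They lie in the 108 bases shown between these genes. The NF-kB count thus depended on the letters chosen. The AP-1 core TGANTCA stood upstream of 1, Upp1 (3.7%, against 5.51% of tested genes and 7.82% of the table), the cyclic AMP response element TGACGTCA of 1, Fscn1 (3.7%, against 3.12% and 1.77%), and the PU.1 letters GAGGAAGT of 0 (3.3% and 2.79%). The TATA box and C/EBP letters, given next, were also chosen after the calls were seen. The TATA box letters TATAAA stood upstream of 6 of the 27 (22.2%), namely Arhgdib, Fpr1, Fpr2, Fscn1, Ifitm6 and Il1b, against 7.56% of tested genes and 14.3% of the table. The C/EBP core TTGCNNAA stood upstream of 3 (11.1%), Lcn2, Ptgs2 and Vegfc, against 9.24% and 10.8%. A match of letters is not a binding site, and a missing match says only that these letters are not in this stretch. The 7 genes with a smaller TET effect had 4 entries, none with fewer than 5 CpG.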

How the data were processed

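RNA was sequenced from BMDMs, and the authors aligned reads with HISAT2 to mm9 and counted them per gene with HTSeq. The deposited values were raw counts for 23420 gene symbols per library, plus 5 tally rows of read pairs assigned to no gene, which stayed out of all sums (32.8% to 46.6% of pairs at 0 h). The strand setting of the counting was not given in the sources used here. Groups came from the sample titles.

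Effects were tested with DESeq2 1.42.0 (R 4.3.3; the submitters' processing notes name DESeq2 1.30.0) by Wald tests with Benjamini-Hochberg adjustment and a threshold of 0.05. The difference used the 16 BMDM libraries, 8 groups of 2, and each effect the 8 libraries of its own cohort. A tested gene is one with an adjusted p. Normalised counts are counts divided by size factors, and 95% intervals are 1.96 SEs on either side. Alternatives were edgeR 4.0.16 quasi-likelihood tests, TMM factors, a filter of 10 counts in 2 libraries, 0 h libraries only, all 16 libraries for each effect, a replicate block, gene-length offsets and leaving out each library. Counts were simulated for these comparisons, in which 200 genes had a log2 change of 2. In them the DESeq2 fit found 78.5% for the difference (12890 genes), 98% for the TET effect (12980) and 87.5% for the TDG effect (12665). Among these DESeq2 calls 18.7%, 7.98% and 25.2% were false. In the same simulated counts edgeR found 68.5%, 97.5% and 76%, in that order, with 6.16%, 8.02% and 7.32% false among its calls. DESeq2 thus found more of the changed genes for the difference and the TDG effect, with a larger false share. Apart from the planted change and the depth, a simulated gene had the same mean and spread in all libraries of a fit. The simulation held no gap between cohorts, no response at 6 h and no library set apart by gene length. Its shares thus need not hold for the real libraries.

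Assigned counts of 4982950 to 21503302 per library set the precision, and counting intervals cover counting error only. The genes, classes and lists were chosen with earlier results of these data known. Among genes with mean normalised counts of 50 or more, the rule named the 10 largest positive and 8 largest negative called differences, the 3 largest each way with TDG loss only, the 4 largest each way in opposite directions and 3 each way in the same direction (by unadjusted p), the targeted genes with Ndor1, and up to 3 genes per list. The comparisons of length, CpG and WT levels were chosen after the data were seen. Exonic lengths came from the mm9 annotation, which matched 21259 of 23420 symbols (90.8%), and promoters from RefSeq (GRCm38.p6). Some genes that the rule took are not reported here.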

Additional observations from a re-analysis of the deposited data

Results flagged for a closer look

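The effects of TET loss and TDG loss at 0 h differed, by the DESeq2 test of the difference itself, for 38 genes. Among those with mean normalised counts of 50 or more, the log2 difference was 5.01 for Fscn1, 4.76 for Ifitm1, 3.68 for Il1b, 3.61 for Cd300e, 3.06 for Ccnd2, 2.87 for Uchl1, 2.74 for Lcn2, 2.57 for Tmem176b, 2.51 for Ifitm6 and 2.48 for Eva1b. Fscn1 (mean 52.9) reached that mean only through the Tdg cohort, and Ifitm1 (mean 61.5) only through TET iTKO. Their SEs were 1.30 and 1.18. On the other side it was -2.35 for Ptgfrn, -2.13 for AI427809, -1.97 for Angpt2, -1.96 for Angptl2, -1.55 for Clec7a and -1.20 for Syngr1.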

How the results depend on the processing

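All 38 genes kept the sign of the difference in every alternative, and the number called changed. The alternatives refit the libraries that picked these genes, so kept signs could be foreseen and are a description. edgeR called 0 for the difference, for TET only and for opposite directions. With 0 h libraries only the counts were 20, 20 and 1. With all 16 libraries for each effect the TET effect had 223 calls, the TDG effect 2, TDG only 1 and opposite directions 4. With gene-length offsets the TDG effect had 1 and opposite directions 0. Whether equal replicate numbers marked a pair was not stated, and the main fit did not pair them. The correlation of deviations between genotypes was 0.0269 in the Tet and 0.318 in the Tdg cohort (9484 genes, 2 pairs). With the replicate block the difference had 182 calls, the TDG effect 4, TET only 167 and opposite directions 12, and with the block and length offsets 221, 3, 206 and 7. Leaving out each library gave 14 to 2409 calls of the difference, 280 to 743 of the TET effect, 0 to 1184 of the TDG effect, 12 to 234 for TET only, 0 to 1027 for TDG only and 0 to 99 for opposite directions. The highest counts but that of the TET effect came without WT replicate 1 of the Tdg cohort. Without TET iTKO replicate 2 the TET effect had 280 calls, without WT replicate 1 or 2 of its cohort 380 and 430, and the difference had 14, 23 and 14. Without TDG iKO replicate 1 or 2 the difference had 72 and 24. Leaving out WT replicate 2 of the Tdg cohort turned the sign of the TDG effect for 19 of 79 called or named genes, 3 of which (Mir142, Ccdc173 and Lst1) had an unadjusted p under 0.05 in the full fit. Over the omissions the TDG effect ran from -3.02 to 0.71 for Mir142 and from -2.84 to 0.04 for Ccdc173, and the difference from -0.95 to 0.14 for Tet3 and from -0.57 to 0.25 for Ndor1, positive without TDG iKO replicate 2. Without WT replicate 2 of the Tdg cohort the difference of Mir142 was -0.16. The causes were not tested.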
